A study of Mus musculus with 5 samples.

Results

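The 10 genes described here write, remove or bind methyl groups on cytosine in DNA: Dnmt1, Dnmt3a and Dnmt3b (writers), Uhrf1 (the partner of maintenance methylation), Tet1, Tet2 and Tet3 (erasers) and Mbd1, Mbd2 and Mbd4 (readers). They were chosen by gene symbol, at a time when earlier results of these data were known, and all 10 were found among the 22683 genes of the deposited table. Expression was measured in satellite cells, the stem cells of skeletal muscle, described as quiescent and sorted by flow cytometry. One group was wild type (2 libraries). The other was mdx (3 libraries), the mouse model of Duchenne muscular dystrophy that carries a mutation in the dystrophin gene. Each library of total RNA came from 10000 to 20000 sorted cells, and neither a treatment nor the age, strain, muscle and sorting gate of the mice is given in the sources used here. Whether the libraries came from separate animals is not stated either, so the p-values capture variation among these 5 libraries and may reflect technical spread alone.

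DNA methylation sits mostly on cytosines followed by guanine (CG). DNMT3A and DNMT3B place new methyl groups, while DNMT1, guided by UHRF1 to newly replicated DNA, copies the pattern to the daughter strand. TET enzymes oxidize methylcytosine, which starts its removal, and some proteins with a methyl-CpG-binding domain (MBD) read the mark. In satellite cells such enzymes are studied for their part in holding quiescence and in the switch to proliferation and differentiation.

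Library totals lay between 12473348 and 16825045 normalized counts, which are gene-level reads after scaling by a size factor and rounding. One read was worth an estimated 0.86 to 1.25 normalized counts, so that the values are close to read numbers. Dmd, the dystrophin gene, stood at 11826 and 9266 in the wild-type pair and at 4642, 4116 and 3700 in mdx 1, 2 and 3 (log2 fold change −1.34, limma adjusted p = 0.00099). Xist, transcribed from the inactive X chromosome of female cells, had 30235 and 30176 in wild type and 0, 0 and 12 in mdx, while Ddx3y, Eif2s3y, Kdm5d and Uty of the Y chromosome reached 430 to 967 in mdx and at most 9 in wild type. Genotype and sex cannot be told apart in any comparison given here. Pax7, the defining factor of satellite cells, was at 9103 and 7644 in wild type and higher, at 12767, 9751 and 14989, in mdx, although the difference did not pass (limma adjusted p = 0.0698). Of the markers listed for the cell type, 14 in number, 3 rose and 7 fell in mdx, against 14.6% and 10.3% of all tested genes. The rises were Itga7, Cdh15 and Fgfr4 (1.92-fold, 1.96-fold and 1.73-fold, named after their values were seen), and the falls included the surface proteins Sdc4 (10.0-fold lower) and Cd34 (3.78-fold lower). The summed level of the list was 90985 to 103606 in wild type and 51642 to 72695 in mdx, but without Sdc4 the sums overlapped (63152 to 72720 and 49009 to 69779).

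Promoter windows from RefSeq (GRCm38.p6, the build of the mm10 coordinates) were available for 8 of the 10 genes, and none is shown for Mbd1 and Mbd2. Each window runs from 250 bases before to 50 bases after a start site, and of several windows per gene the one with most CG pairs was taken. That choice was made after motif matches had been seen: in the windows nearest to the gene starts of the deposited table, 0 of the 8 genes held the E2F letters described next, and 7 held a GC box. For Dnmt1 and Uhrf1 those nearest windows lie 0 and 16 bases from the table's start and hold 2 and 12 CG pairs. These windows are shown for the 4 genes that rose in mdx, because they hold the letters that these enzymes act on and the motifs that were searched. In the windows of Dnmt1 and Uhrf1, capitals mark letters of the kind bound by E2F factors, which drive S-phase genes. In those of Dnmt3a and Tet3, where no such letters were found, capitals mark the GC box. Sequences are written on the strand of the gene.
Dnmt1, chr9:20952574-20952873, minus strand: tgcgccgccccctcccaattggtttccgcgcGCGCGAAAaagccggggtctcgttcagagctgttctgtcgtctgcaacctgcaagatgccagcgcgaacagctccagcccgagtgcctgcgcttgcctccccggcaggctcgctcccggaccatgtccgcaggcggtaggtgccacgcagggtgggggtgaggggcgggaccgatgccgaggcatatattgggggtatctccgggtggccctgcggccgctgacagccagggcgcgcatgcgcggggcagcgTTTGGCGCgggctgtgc
Uhrf1, chr17:56304063-56304362, plus strand: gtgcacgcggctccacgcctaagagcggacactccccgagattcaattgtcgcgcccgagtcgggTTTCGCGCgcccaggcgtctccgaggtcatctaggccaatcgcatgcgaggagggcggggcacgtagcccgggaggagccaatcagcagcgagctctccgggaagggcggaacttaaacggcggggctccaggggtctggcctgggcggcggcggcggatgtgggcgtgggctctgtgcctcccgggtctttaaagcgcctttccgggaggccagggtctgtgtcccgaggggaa
Dnmt3a, chr12:3806910-3807209, plus strand: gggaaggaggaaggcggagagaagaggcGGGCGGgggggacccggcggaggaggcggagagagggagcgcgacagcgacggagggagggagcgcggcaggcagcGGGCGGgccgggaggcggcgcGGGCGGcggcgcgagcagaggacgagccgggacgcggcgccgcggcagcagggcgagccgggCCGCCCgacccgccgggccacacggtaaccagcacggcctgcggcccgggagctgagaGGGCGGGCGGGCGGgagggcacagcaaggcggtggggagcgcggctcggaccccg
Tet3, chr6:83441629-83441928, minus strand: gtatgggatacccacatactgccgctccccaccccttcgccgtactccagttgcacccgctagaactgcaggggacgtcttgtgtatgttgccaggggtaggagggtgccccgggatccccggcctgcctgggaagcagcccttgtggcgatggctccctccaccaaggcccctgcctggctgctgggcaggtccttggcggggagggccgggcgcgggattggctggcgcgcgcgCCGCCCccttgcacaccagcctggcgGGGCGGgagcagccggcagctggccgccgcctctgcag

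The E2F search used TTTCCCGC, TTTGGCGC, TTTCGCGC and TTTGCCGC on both strands. In the CG-richest windows Dnmt1 held matches starting at −219 and 34, and Uhrf1 held 1 at −185, counted from the start site as 1. The windows of the other 6 members held none, so the matches of this pair depend on which start site is used. A match was present in 2.26% of all 32851 windows and in 5.15% of the 8701 windows with at least 20 CG pairs. The GC box GGGCGG, searched on both strands, was found in 8 of the 8 members' windows, against 35.7% of all windows and 80.9% of the CG-rich ones. CG pairs numbered 33 in Dnmt1, 33 in Uhrf1, 47 in Dnmt3a, 30 in Dnmt3b, 17 in Tet1, 57 in Tet2, 22 in Tet3 and 25 in Mbd4, against a median of 7 over all windows. The window of Tet2, which had 1, thus held more CG pairs than 99.8% of windows, and that of Dnmt1 more than 91.4%. Dnmt1 (3 windows), Dnmt3a (3) and Uhrf1 (2) entered with their CG-richest window, while the windows they are set against were not chosen so. For these genes the choice itself favours a high rank and motif matches, and the other windows of Dnmt1 held 12 and 2 CG pairs. A match describes letters in a window and not a bound site. The start sites used for Tet1 and Tet3 lie 11794 and 14714 bases inside the gene as the deposited table places it, and that of Dnmt1 lies 7265 bases inside.

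Between the genotypes, 4 of the 10 genes rose in mdx (Dnmt1, Dnmt3a, Uhrf1 and Tet3), none fell, and 6 did not pass the test. The test was limma on log2(normalized count + 2), with p-values adjusted over all 18199 tested genes and a threshold of 0.05. Over all tested genes 14.6% were called higher, 10.3% lower and 24.9% in either direction. Higher calls made up 58.7% of all calls, and 31.2% when a length and GC correction also removed each library's level, with a median log2 fold change over all genes of −0.34. With plain moderation of the spread, Tet3 alone of the members passed. At an unadjusted p under 0.05, 8 of the 10 were higher and 0 lower, against 6933 of all 18199 tested genes in either direction. All 3 mdx libraries lay above both wild-type libraries for 8 of the 10, against 28.2% of all tested genes, and no member had all mdx libraries below, against 23.8%. The members' median log2 fold change was 1.16, and that of all tested genes was 0.13.

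**Figure D1:**
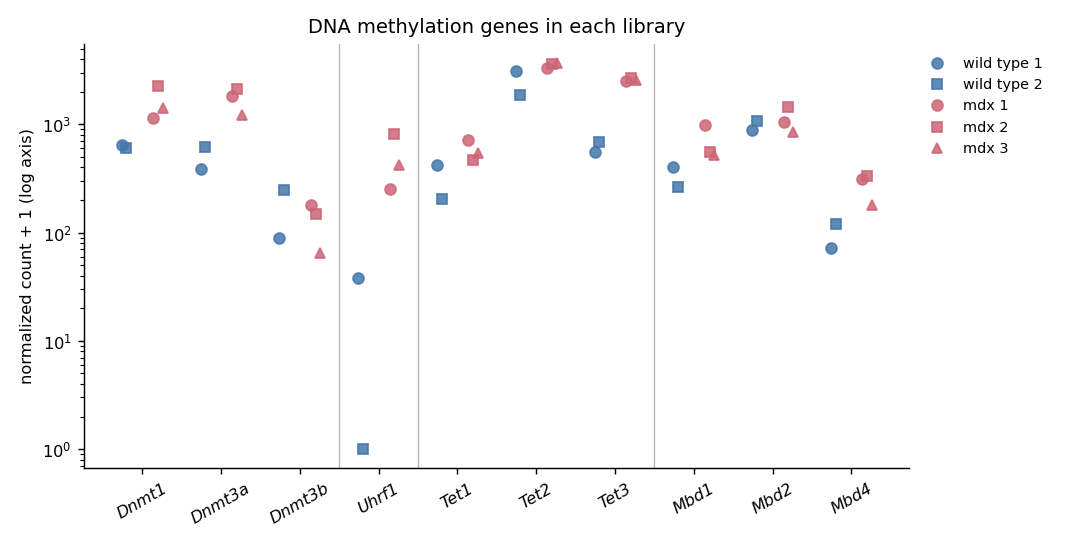
Normalized count + 1 (log axis) of each gene in each library, with wild type in blue, mdx in red, the marker shape giving the library number, and grey lines separating writers, the maintenance partner, erasers and readers. The mdx points of Tet3 (2482 to 2649) lie close together and far above wild type, while those of Dnmt3b (64 to 179) lie among the wild-type points.

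Of the writers, Dnmt1 copies methylation after replication and lies on chromosome 9, 20907209 to 20959888. Its values were 643 and 599 in the wild-type libraries, against 1130, 2243 and 1407 in mdx. Both wild-type libraries were close together and every mdx library was above them, with mdx 2 highest. Dnmt1 rose 2.46-fold (log2 fold change 1.30, SE 0.30, 95% interval 0.61 to 1.98, limma adjusted p = 0.0145). Leaving out mdx 2 (limma adjusted p = 0.052) or mdx 3 (0.0725) ended the call. So did a correction for trends with transcript length and GC content, fitted per library, which gave a log2 fold change of 0.58 (0.201). This correction keeps each library's median level and was written after a first form, which also removed the level, had given 0.16 (0.713).

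Dnmt3a and Dnmt3b are the enzymes of new methylation. Dnmt3a (chromosome 12, 3807030 to 3914443) had 384 and 620 in wild type and 1811, 2131 and 1222 in mdx, and the groups did not overlap. It rose 3.43-fold (log2 1.78, SE 0.31, 95% interval 1.07 to 2.49, limma adjusted p = 0.00398). After length and GC correction the log2 fold change was 0.92 (0.0645), and 0.50 (0.267) in its first form. Dnmt3b (chromosome 2, 153649450 to 153687730) had 88 and 247 in wild type and 179, 146 and 64 in mdx, and the groups overlapped. Its log2 fold change was −0.31 with an interval of −1.88 to 1.26 (limma adjusted p = 0.784), which leaves room for changes in both directions, and the sign turned without wild type 2 (0.43) or mdx 3 (0.13).

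Because a ratio inside 1 library does not depend on how that library was scaled, the writers were also set against each other. Per base of transcript, Dnmt3b made up 33.9% and 47.2% of the pair's summed level in wild type and 18.1%, 13.3% and 10.5% in mdx. Each mdx library was below both wild-type libraries. The log2 ratio of Dnmt3a to Dnmt3b was 1.71 on average in wild type and 3.8 in mdx, a difference of 2.08 (exact two-sided permutation p = 0.2, which is the smallest that 2 against 3 libraries allow, and 0.267 adjusted over the 4 ratios tested). The difference was 1.65 after length and GC correction and 1.69 to 2.47 with 1 library left out.

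Uhrf1 (chromosome 17, 56303321 to 56323486), which recognizes half-methylated DNA behind the replication fork and recruits DNMT1, was the lowest member in wild type. It was at 37 and 0 there, and at 250, 813 and 421 in the mdx libraries. The count of 0 in wild type 2 allows up to 2.58 normalized counts (3 reads), counting error only. Every mdx library was well above wild type, and mdx 2 was again highest. Uhrf1 rose with a log2 fold change of 5.65 (SE 1.17, 95% interval 3.00 to 8.30, limma adjusted p = 0.0085). The size rests on the wild-type library used: it was 7.79 when wild type 1 was left out and 3.51 when wild type 2 was, and leaving out any mdx library ended the call (limma adjusted p = 0.0578, 0.0794 and 0.0777 without mdx 1, 2 and 3). Length and GC correction left the call in place (5.37, 0.0145).

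The log2 ratio of Dnmt1 to Uhrf1 was 4.05 and 8.23 in wild type and 2.17, 1.46 and 1.74 in mdx, without overlap (exact two-sided permutation p = 0.2, adjusted 0.267). Their difference of −4.35 ranged from −6.44 without wild type 1 to −2.26 without wild type 2. The value of 8.23 rests on the count of 0 for Uhrf1 in wild type 2.

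**Figure D2:**
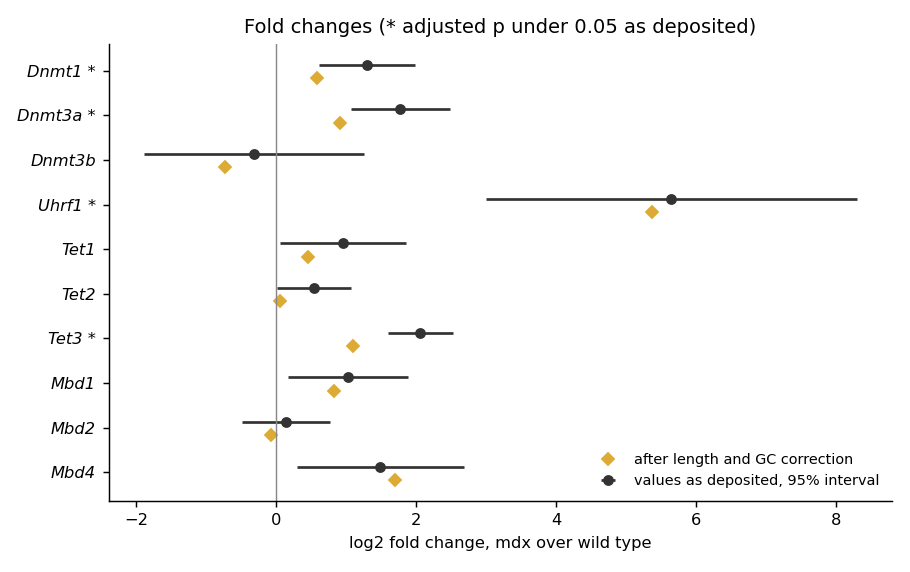
Log2 fold change of mdx over wild type for each gene, with black points and 95% intervals for the values as deposited and yellow diamonds after the length and GC correction that keeps each library's level. Tet3 goes from 2.06 to 1.11 and Dnmt3a from 1.78 to 0.92, while Uhrf1 (5.65 and 5.37) and Mbd4 (1.49 and 1.71) move less.

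Of the erasers, Tet3 showed the smallest standard error and the smallest p of all members. Tet3 (chromosome 6, 83362373 to 83456392) was at 554 and 681 in wild type, while the mdx libraries lay at 2482, 2649 and 2574, close together and far above. It rose 4.17-fold (log2 2.06, SE 0.20, 95% interval 1.6 to 2.52, limma adjusted p = 0.0002) and passed under each of the 15 alternatives tried, with log2 fold changes of 0.69 to 2.25. After length and GC correction the log2 fold change was 1.11 (limma adjusted p = 0.007), and 0.69 (0.0445) in its first form.

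Tet2 (chromosome 3, 133463679 to 133544390) was the most abundant TET message in each library. Wild type showed 3114 and 1864 and mdx 3302, 3604 and 3656, with wild type 1 near the mdx level. The log2 fold change of 0.55 did not pass (95% interval 0.02 to 1.07, limma adjusted p = 0.119), and it was 0.063 after length and GC correction. Tet1 (chromosome 10, 62804570 to 62899118), best known from embryonic stem cells, had 422 and 201 in wild type and 708, 471 and 546 in mdx. The groups did not overlap, although wild type 1 and mdx 2 were close, and the log2 fold change of 0.96 did not pass (95% interval 0.06 to 1.85, limma adjusted p = 0.111). Without wild type 1, the log2 fold changes were 0.92 for Tet2 and 1.49 for Tet1. Without wild type 2, they were 0.18 and 0.42. Such fits rest on 1 wild-type library, so no p-value is given for them. Tet2 passed after quantile normalization (limma adjusted p = 0.0441).

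Within the family, Tet3 took up 12.1% and 22.3% of the summed TET level per base of transcript in wild type and 35.8%, 36.3% and 35.1% in mdx. Tet2 made up 80.9% and 72.7% in wild type and 56.5%, 58.7% and 59.2% in mdx, and Tet1 between 4.90% and 7.74% in all libraries. The log2 ratio of Tet3 to Tet2 was −2.49 and −1.45 in wild type and −0.41, −0.44 and −0.51 in mdx. It differed by 1.51 between the genotypes (exact two-sided permutation p = 0.2, adjusted 0.267), and by 1.0 without wild type 1. The ratio of Tet1 to Tet2 overlapped between the groups (difference 0.41, exact two-sided permutation p = 0.4, adjusted 0.4).

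**Figure D3:**
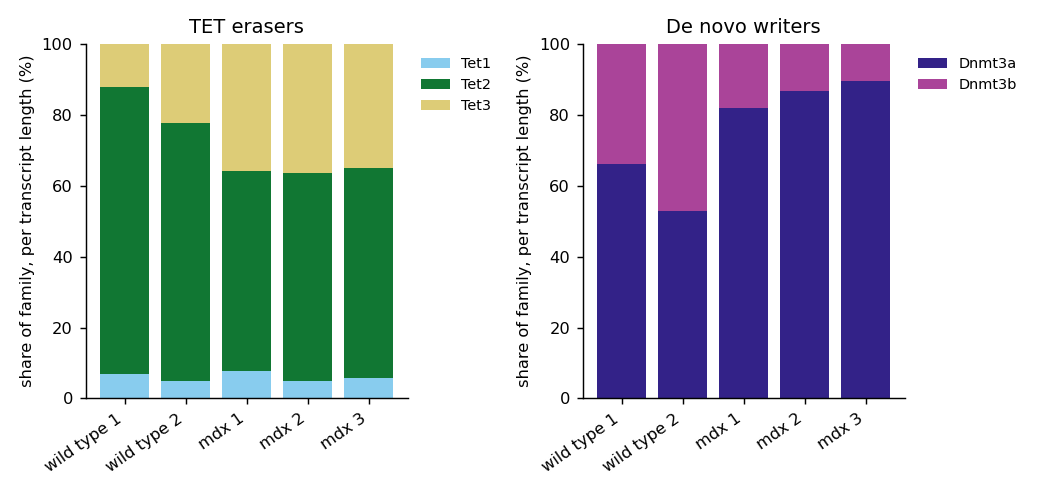
Share (%) of each TET gene and of each de novo writer in the summed level of its family per transcript length, as 1 stacked bar per library. The share of Tet3 is at most 22.3% in wild type and at least 35.1% in mdx, and the share of Dnmt3b is at least 33.9% in wild type and at most 18.1% in mdx.

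None of the 3 readers passed the test in limma, though 2 of them (Mbd1 and Mbd4) had an unadjusted p under 0.05. Mbd1, a repressor that recruits histone modifiers, measured 400 and 260 in wild type, against 987, 556 and 522 in the mdx libraries. No mdx library fell to the wild-type level, and mdx 1 was highest. The log2 fold change was 1.03 (95% interval 0.17 to 1.89, limma adjusted p = 0.0791), and it passed with values rescaled to equal library totals (0.0466). It was 1.34 without wild type 1 and 0.72 without wild type 2. Mbd4 (chromosome 6, 115840697 to 115853371), a glycosylase that repairs the mismatches left when methylcytosine loses its amino group, lay at 71 and 119 in wild type, below 309, 330 and 177 of mdx. A log2 fold change of 1.49 was fitted (95% interval 0.3 to 2.68, limma adjusted p = 0.0679), and it passed after length and GC correction (1.71, 0.0488). It was 1.13 without wild type 1 and 1.86 without wild type 2. Mbd2, the methylation-binding subunit of a form of the NuRD repressor complex, had 891 and 1079 in wild type and 1047, 1446 and 840 in mdx. The groups overlapped, and the interval of its log2 fold change of 0.14 ran from −0.48 to 0.77 (limma adjusted p = 0.744).

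Levels of different genes were compared per kilobase of the longest annotated transcript, which ran from 1.95 kb (Mbd2) to 14.4 kb (Tet1). In wild type, mean normalized counts per kb were 504 for Mbd2, 271 for Tet2, 106 for Dnmt1, 84.2 for Mbd1, 56.6 for Tet3, 51.8 for Dnmt3a, 38.8 for Dnmt3b, 26.3 for Mbd4, 21.7 for Tet1 and 5.16 for Uhrf1. Mbd2 and Tet2 were each above the next gene in both libraries, whereas the genes from Tet3 to Tet1 overlapped their neighbours. In mdx, the order was Mbd2 (569), Tet2 (384), Dnmt1 (271), Tet3 (236), Dnmt3a (178), Mbd1 (176), Uhrf1 (138), Mbd4 (75.3), Tet1 (40.0) and, last, Dnmt3b (14.8 to 41.4). Of these, Dnmt1 overlapped Tet2, Tet3, Dnmt3a, Mbd1 and Uhrf1, and Dnmt3a, Mbd1 and Uhrf1 overlapped each other. Mbd1 also overlapped Tet3, Uhrf1 overlapped Mbd4, and Mbd4 overlapped Tet1. By mean, Dnmt3b was lowest in mdx, where it overlapped Tet1, and Uhrf1 was lowest in wild type, below all others in both libraries.

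Long transcripts as a class were higher in mdx. The median log2 fold change of tested protein-coding genes was −0.94 for transcripts under 1 kb, −0.28 from 1 to 2 kb, 0.10 from 2 to 4 kb, 0.42 from 4 to 8 kb and 0.71 from 8 kb on, where 39.1% of 845 genes were called higher. Dnmt3a (9.69 kb), Tet3 (10.9 kb), Tet2 (9.18 kb) and Tet1 are in the longest class, Dnmt1 (5.87 kb) and Dnmt3b (4.32 kb) in the class before it, and Uhrf1 (3.59 kb), Mbd4 (3.61 kb) and Mbd1 (3.92 kb) in the one from 2 to 4 kb. Of the longest class, Tet3, Dnmt3a and Tet1 lay above its median and Tet2 below. Apart from the length and GC correction given, the part of length in these values was not tested.

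Of 11 tested genes that supply or guide the writers, 3 fell, 0 rose in limma (2 higher at an unadjusted p under 0.05) and 8 did not pass. The lower calls were 27.3% of this list, against 10.3% of all tested genes, of which 14.6% were called higher. Mat2a makes S-adenosylmethionine, the methyl donor of every DNA methyltransferase. It went from 8839 and 9528 to 2852, 2708 and 2555, a 3.39-fold fall (log2 −1.76, SE 0.16, limma adjusted p = 0.00013). Ahcy clears S-adenosylhomocysteine, the product left after methyl transfer and an inhibitor of the same enzymes, and went from 982 and 892 to 207, 276 and 185 (4.23-fold lower, limma adjusted p = 0.00257). Pcna, the sliding clamp that tethers DNMT1 to the replication fork, fell 5.40-fold from 2792 and 3337 to 409, 590 and 743 (limma adjusted p = 0.000474). In all 3 genes every mdx library was far below wild type, and the calls held under each of the 15 alternatives, Ahcy with adjusted p of at most 0.0396.

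The 2 most abundant partners that did not pass were Trim28, a corepressor that protects methylation at imprinted loci (log2 fold change −0.30, limma adjusted p = 0.265), and Usp7, which stabilizes UHRF1 and DNMT1 (0.45, 0.0874). Hells, a remodeller needed for methylation of repeats and named here after its values were seen, showed 43 and 126 against 169, 577 and 223 and missed the threshold (limma adjusted p = 0.0772). The windows of Hells and of Cdca7, its activator, also hold E2F letters, and Cdca7 overlapped between the groups (0.611). Of the 32 partners of all lists with a window, these 2 held such letters, against 2.26% of all windows and 5.15% of the CG-rich ones.

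Of 16 tested genes of methylcytosine removal, base repair and TET cofactors, 2 rose (12.5%), 1 fell (6.25%) and 13 did not pass. These shares are near those of all tested genes (14.6% higher and 10.3% lower). At an unadjusted p under 0.05 in limma, 3 were higher and 3 lower. Gadd45g, a stress-induced gene of a family linked to repair-based demethylation, went from 107 and 147 to 780, 631 and 884 (5.96-fold higher, limma adjusted p = 0.00104). Neil3, a glycosylase of oxidized bases found mostly in proliferating cells, had no count in wild type 1 or 2. It reached 22, 82 and 56 in mdx. The mdx mean was 20.3-fold a wild-type floor of 3 reads per library, which is not a lower bound on the rise. The log2 fold change was 4.61 (95% interval 1.80 to 7.42, limma adjusted p = 0.0263). Leaving out mdx 2 or mdx 3 ended the call of Neil3 (limma adjusted p = 0.0539 and 0.0609). Ogt, the X-linked sugar transferase that binds TET2 and TET3, went from 5189 and 4150 to 3291, 2549 and 2543, a 1.67-fold fall (limma adjusted p = 0.0257). Its call ended with equal library totals (0.117), after quantile normalization (0.0989), with plain moderation (0.199) and without wild type 1, mdx 2 or mdx 3 (0.078, 0.0951 and 0.0979). The isocitrate dehydrogenases Idh2 and Idh1, sources of the cofactor 2-oxoglutarate, did not pass (limma adjusted p = 0.495 and 0.819). Tdg, which excises the oxidized bases that TET enzymes leave and is named here after its values were seen, showed 159 and 164 against 436, 307 and 243 and missed the threshold too (0.129).

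Among 10 further tested genes of MBD, reader and CG-binding proteins, 5 rose, 0 fell in limma (0 at an unadjusted p under 0.05) and 5 did not pass. Of all tested genes, 14.6% were called higher and 10.3% lower. Binding of these proteins to the methyl mark was not measured. Mbd6, an MBD protein of a histone deubiquitinase complex, went from 63 and 41 to 436, 687 and 665 (11.1-fold higher, limma adjusted p = 0.000827). Its relative Mbd5 went from 716 and 390 to 1330, 1058 and 1011 (2.12-fold, 0.032), and Mbd3, the NuRD counterpart of Mbd2, from 459 and 465 to 700, 878 and 1008 (1.84-fold, 0.0441). Cxxc1, which binds unmethylated CG and recruits an H3K4 methyltransferase, was 2.00-fold higher (0.0179), and Kdm2b, which brings a Polycomb complex to unmethylated CG, was 4.94-fold higher (0.0285). Kdm2a, a histone demethylase that binds unmethylated CG, was among those that did not pass (log2 fold change 0.46, limma adjusted p = 0.0885). Only Mbd6 of the 5 kept its call with each single mdx library left out and after length and GC correction, where Mbd3 was at −0.044. Kdm2b was at 1.05 on the log2 scale with wild type 1 left out and at 3.56 with wild type 2 left out. Mbd5 was at 1.52 and 0.65 in the same fits.

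**Figure D4:**
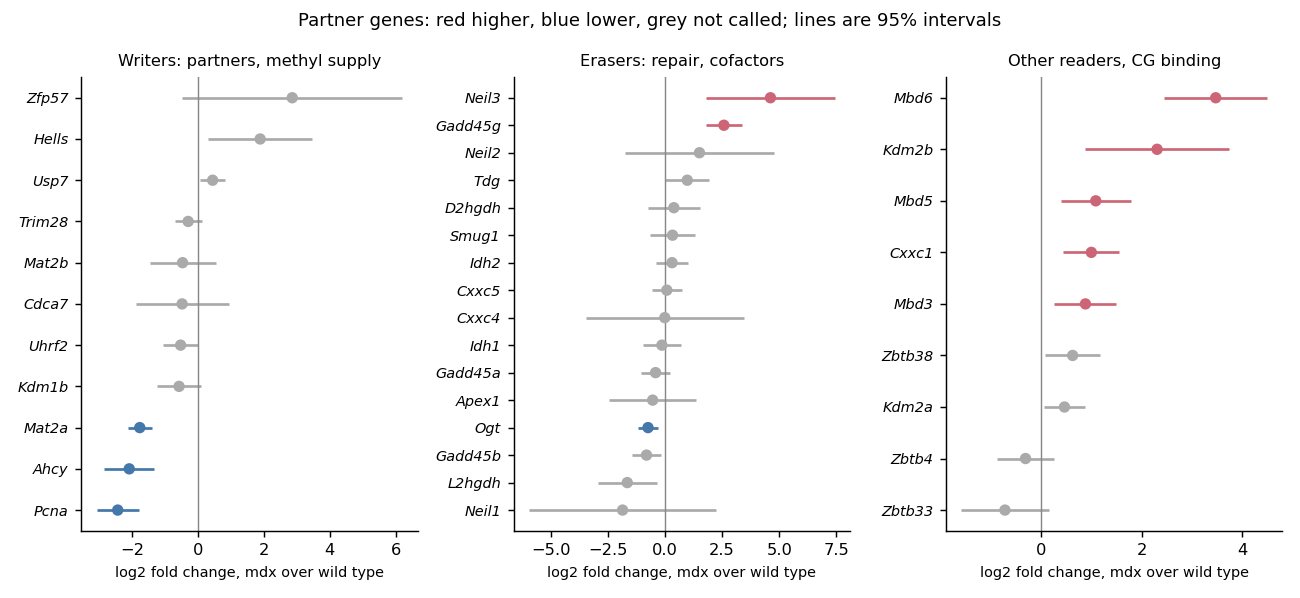
Log2 fold change of mdx over wild type with 95% intervals for partner genes of the writers, the erasers and the readers, in 3 panels with different axis ranges. Mat2a, Ahcy and Pcna stand alone as lower calls among the writers' partners. The 5 calls in the panel of other readers and CG-binding proteins are all higher, and they include Cxxc1 and Kdm2b, which bind unmethylated CG.

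Maintenance methylation is tied to replication, so S-phase and mitosis genes were read beside it. Of 23 tested S-phase genes, 5 rose (21.7%) and 1 fell, against 14.6% and 10.3% of all tested genes. The fall was that of Slbp, named after its values were seen, which binds histone messages. At an unadjusted p under 0.05, 8 were higher and 2 lower. Pcna, which fell, was listed with the writers' partners and is not in this count. The call of Slbp ended, among other settings, with equal library totals and without any 1 mdx library. Of 18 mitosis genes, 12 rose and 0 fell in limma (0 lower at an unadjusted p under 0.05). Mcm2, a subunit of the replicative helicase, was 8.59-fold higher (limma adjusted p = 0.0009), Cdt1, which loads it, rose by 3.91 on the log2 scale (0.00229), and Rrm2, of ribonucleotide reductase, was 5.96-fold higher (0.0114). Mki67, the proliferation marker Ki-67, was at 71 and 0 in wild type but at 2297, 5480 and 2337 in mdx. Top2a, Cenpf and Kif23, of mitotic chromosomes and the spindle, rose as well (limma adjusted p = 0.00136, 0.00129 and 0.000651). Without mdx 3, 2 of the S-phase and 5 of the mitosis genes were called higher. Without mdx 1 or mdx 2 the S-phase count was also 2, and without mdx 2 the mitosis count was 7.

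Among the mdx libraries, mdx 2 held the highest value for all 18 mitosis genes and for 17 of 24 S-phase genes. It also did for 6 of the 10 methylation genes, namely Uhrf1, Dnmt1, Dnmt3a, Tet3, Mbd2 and Mbd4, against 35.2% of all tested genes. The lead of mdx 2 was small for Tet3 (2482, 2649 and 2574 in mdx 1, 2 and 3) and Mbd4 (309, 330 and 177). For Uhrf1 (250, 813 and 421) and Dnmt1 (1130, 2243 and 1407) the lead was larger. Mdx 2 held the highest value for 11 of 14 macrophage markers too, but for 1 of 14 endothelial markers. The share of the methylation genes' rise that goes with dividing cells was not tested.

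**Figure D5:**
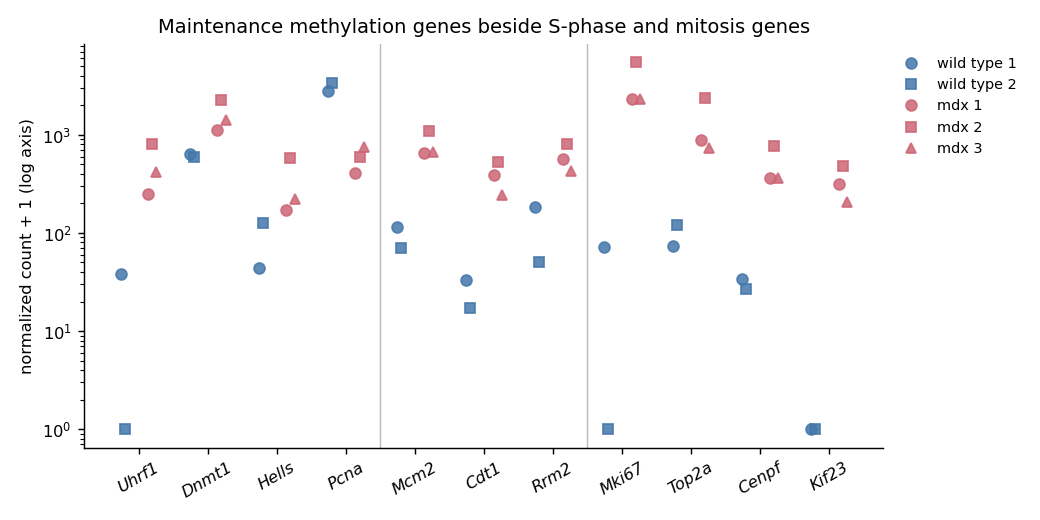
Normalized count + 1 (log axis) in each library (wild type blue, mdx red, marker shape by library number) for maintenance methylation genes with Hells and Pcna, then 3 S-phase genes (Mcm2, Cdt1 and Rrm2), then 4 mitosis genes. Mdx 2 (red square) is highest for Uhrf1 (813), Dnmt1 (2243) and Mki67 (5480), and of the genes drawn Pcna alone lies lower in mdx than in wild type.

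Markers of other cells of muscle also differed, and their calls stand against 14.6% higher and 10.3% lower over all tested genes. Genes of DNA methylation are expressed in many cell types, and in bulk RNA a change in the mix of cells and a change in RNA per cell cannot be told apart. Endothelial markers rose in 13 of 14 cases and 1 fell, their sum going from 3098 to 3613 in wild type to 24735 to 33131 in mdx, and Emcn, Cldn5, Erg and Ptprb were at 0 in both wild-type libraries. Macrophage markers rose in 12 of 14 cases (sums of 428 to 695 and of 12567 to 19452), with Itgam, Mrc1, C1qa, C1qb, C1qc and Cx3cr1 at 0 in wild type. Of 12 markers of fibro-adipogenic progenitors (mesenchymal cells of the muscle interstitium), 10 rose and 1 fell (32162 to 44673 and 103098 to 175590), with Postn at 0 in wild type. Of 10 markers of pericytes and smooth muscle, 5 rose and 1 fell (15631 to 19520 and 28187 to 35201), with none at 0 in both wild-type libraries. Schwann cell markers rose in 6 of 8 cases, with sums that overlapped (2232 to 3012 and 2438 to 2936) and S100b and Cdh19 among those at 0 in wild type. Of 4 tested lymphocyte markers, 0 were called by limma (0 at an unadjusted p under 0.05), the sums overlapped (44 to 220 and 82 to 150), and Trac and Ms4a1 were among those at 0 in wild type. The part of these cells in the levels of the methylation genes was not tested.

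Genes of the germ line that are known to be kept silent by promoter methylation in body cells were read as a list of possible targets. Of 22 such genes, 8 were in the table and 5 were tested, of which 0 were called in limma (0 at an unadjusted p under 0.05 in either direction). Of all tested genes, 14.6% were called higher and 10.3% lower. In the list, 0 had all mdx libraries above wild type and 1 had all below, against 28.2% and 23.8% of all tested genes. At these shares, 5 genes are too few to show whether the list differed from other genes. The gene with all mdx libraries below was Taf7l (named after its values were seen). It showed 175 and 237 in wild type against 158, 75 and 38 in mdx (limma adjusted p = 0.188). Taf7l made up most of the summed level of the list in wild type, which was 263 and 358, against 259, 166 and 92 in mdx. Without Taf7l the sums overlapped (88 and 121 in wild type, and 101, 91 and 54 in mdx). DNA methylation itself was not measured in these libraries.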

How the data were processed

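Normalized counts per gene were analysed in 2 wild-type and 3 mdx libraries, grouped by the labels' titles. The deposited values are treated as a score: reads per gene divided by a size factor and rounded by the authors, as the values themselves show (whole numbers, equal median ratios across columns, and 6 of the whole numbers from 1 to 30 never used in mdx 1). The submitters' processing notes name STAR 2.6.1d, featureCounts 1.6.3, DESeq2 1.18.1 and mm10, and the strand setting is not given in the sources used here, so antisense reads (133 shared exon bases of Dnmt3a with Dnmt3aos, 264 of Mbd4 with Gm44206) cannot be told apart.

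The 18199 genes reaching 10 or more in 2 or more libraries were tested on log2(value + 2) with limma 3.58.1 in R 4.3.3 (trended, robust empirical Bayes, genotype as the only term, two-sided, Benjamini-Hochberg over all tested genes). Folds are on that scale, which understates changes of low genes. Ratios were tested by exact permutation over libraries (scipy 1.17.1). Transcript length and GC content came from the longest transcript in GENCODE M21, which held 22649 of the 22683 identifiers. The fit was tested on simulated data, and the correction on a simulated trend with length alone. That simulation held no genotype effect, so it cannot show whether the correction also removes real differences of long or GC-rich genes. The correction was rewritten after its first results had been seen: the first form also removed each library's level, and it is kept as an added alternative. The choice of promoter window, too, was changed after motif matches had been seen, from the one nearest the table's gene start to the CG-richest. Alternatives covered the pseudocount, filter, scaling, moderation, length and GC correction, replicate block and each library left out.

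Members and gene lists were chosen with earlier results of these data known. Named are all members, up to 8 called partners per list by smallest p with the 2 most abundant not called, and a few called genes per other list. Certain genes covered by this rule are counted but not reported by name here.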

Additional observations from a re-analysis of the deposited data

How the results depend on the processing

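With the replicate number as a block, 1163 genes were higher and 860 lower instead of 2659 and 1868, and 2 members rose instead of 4 (Dnmt3a and Tet3). Same-numbered libraries did not deviate together (r = −0.014 and −0.017), so the numbers are not read as pairs. With 1 library left out, which for wild type assumes that the lone library varies like mdx, 1450 to 3308 genes were higher, 1112 to 1853 lower, and 2 to 7 members rose. Plain empirical Bayes moderation called 1 member (Tet3) and 1150 lower genes. A length and GC correction that also removes each library's level gave 1454 higher and 3199 lower genes (31.2% of calls higher instead of 58.7%) and 2 risen members (Uhrf1 and Tet3), at a median log2 fold change of −0.34. It was the first form of the correction, and the form that keeps the level was chosen after its results had been seen. There Tet2 was at −0.36, Mbd2 at −0.48 and Mbd3 at −0.46. With the level kept, Mbd2 was at −0.064 and Mbd3 at −0.044. Dnmt3b turned to 0.13 with the block and ran from −1.04 to 0.43 with 1 library left out, and Mbd2 from −0.064 to 0.33. No member was called lower under any alternative, and the 4 ratios kept their direction. With 2 and 3 libraries, intervals of members such as Dnmt3b are wide, and the cause of each lost call was not tested. In wild type, Uhrf1 (0 and 37) and Mbd4 (71 and 119) rest on few reads.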
